A study of Mus musculus with 72 samples.

Results

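The early enzymes of cholesterol synthesis, from acetyl units to lanosterol, were followed through the day in mouse liver. They are the products of Hmgcs1, Mvk, Pmvk, Mvd, Idi1, Fdps, Fdft1, Sqle and Lss, chosen by gene symbol, and they are 9 of the 51912 genes in the count table. Livers came from male wild-type C57BL/6J mice that were 43 to 49 days old at the start and lived in 12 h of light and 12 h of dark, with water always at hand. Food was given under 4 paradigms, night-restricted, ad libitum, arrhythmic, and an arrhythmic paradigm whose mice, per the labels, did not adapt fully, here called incompletely adapted arrhythmic. Samples were taken at zeitgeber times (ZT, hours after lights on) 2, 6, 10, 14, 18 and 22, with 3 libraries each, giving 24 groups and 72 libraries. The sources used here do not give the feeding schedules or the criterion for adaptation. Whether the libraries of a group came from separate animals is not said in the labels, and p-values then measure only the spread between these libraries, which may be technical.

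Cells build cholesterol from acetyl-CoA in a chain of enzymes that first makes mevalonate, then isoprenoid units, then squalene, and then the first sterol, lanosterol. When sterol in the endoplasmic reticulum falls, the transcription factor SREBP2 is released and switches on the genes of the whole chain, together with the promoter-bound factors NF-Y and Sp1. In the liver this pathway is known to follow feeding, and hepatic cholesterol synthesis in rodents is known to be higher at night.

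The promoters are shown because several of these genes moved together. A RefSeq promoter table of build GRCm38.p6, running from 250 bases before to 50 bases after each start site, held 6 of the 9 genes, namely Hmgcs1, Mvk, Pmvk (with 2 start sites), Mvd, Idi1 and Lss. The core of the sterol regulatory element bound by SREBP proteins was searched as TCACNCCAC, the NF-Y box as CCAAT, the Sp1 box as GGGCGG and the E-box of clock factors as CACGTG, on both strands. No 2 of these motifs overlap in the matches listed here. The 250 bases upstream of the start are printed below for 3 genes that were rhythmic under night-restricted feeding and for Mvk, which was not called rhythmic in any paradigm. Each is written 5′ to 3′ on the gene's strand. Capitals mark the sterol element core and the NF-Y box, which reads ATTGG where it lies on the other strand.
Hmgcs1, chr13:119690101-119690350, plus strand: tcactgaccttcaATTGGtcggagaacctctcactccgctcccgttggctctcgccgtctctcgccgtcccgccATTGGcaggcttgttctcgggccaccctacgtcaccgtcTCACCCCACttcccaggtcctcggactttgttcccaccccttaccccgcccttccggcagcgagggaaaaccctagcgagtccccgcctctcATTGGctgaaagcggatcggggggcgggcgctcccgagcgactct
Mvd, chr8:122443423-122443672, minus strand: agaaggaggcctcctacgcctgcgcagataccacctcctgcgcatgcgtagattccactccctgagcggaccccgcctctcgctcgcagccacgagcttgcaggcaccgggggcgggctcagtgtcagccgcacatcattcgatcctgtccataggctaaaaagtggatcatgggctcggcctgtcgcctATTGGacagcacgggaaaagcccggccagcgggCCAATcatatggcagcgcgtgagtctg
Lss, chr10:76531355-76531604, plus strand: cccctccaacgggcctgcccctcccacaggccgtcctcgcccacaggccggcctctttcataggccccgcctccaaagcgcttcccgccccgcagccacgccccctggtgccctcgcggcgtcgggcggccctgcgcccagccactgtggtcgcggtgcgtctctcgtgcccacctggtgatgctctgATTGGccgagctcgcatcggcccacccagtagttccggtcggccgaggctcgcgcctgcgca
Mvk, chr5:114444019-114444268, plus strand: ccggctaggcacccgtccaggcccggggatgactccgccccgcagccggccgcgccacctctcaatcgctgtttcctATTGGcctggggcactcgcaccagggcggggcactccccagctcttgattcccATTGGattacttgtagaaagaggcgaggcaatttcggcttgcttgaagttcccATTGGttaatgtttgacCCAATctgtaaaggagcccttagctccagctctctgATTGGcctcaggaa
The 6 genes had 7 promoters in the table, and that of Hmgcs1 was the only 1 with the sterol element core, from 137 to 129 bases before the start, and 1.24% of 32851 promoters in the table hold it. An NF-Y box was found in 6 of the 7, at least 1 for each gene, against 37.4% of the table's promoters. Hmgcs1 had 4 of them (1 lies after the start), Mvk 5, Mvd 2, Idi1 2, Lss 1 and Pmvk 1, at its upstream start site. The Sp1 box was found in 5 of the 7, in neither of Pmvk, and in 35.7% of the table's promoters. None of the 7 held the E-box, which 7.15% of the promoters do. Mvk and Idi1, not called rhythmic in any paradigm, carried NF-Y and Sp1 boxes, and so did Mvd and Lss. These matches describe letters in a window and are not sites shown to be bound. The search took exact letters only, so a missing match does not show that an element is missing.

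**Figure D1:**
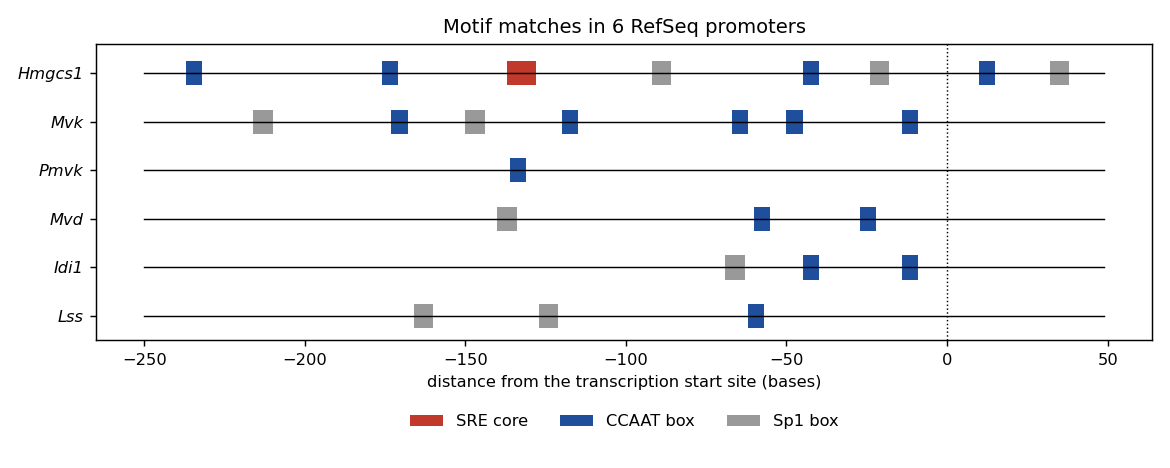
Positions of motif matches in the promoters of 6 enzymes, as distance in bases from the transcription start site (dotted line), with each gene on its own line; for Pmvk the upstream start site is drawn. Red marks the sterol element core (SRE core), found in Hmgcs1 only, blue the NF-Y box (CCAAT box), found in all 6, and grey the Sp1 box, found in all but Pmvk.

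Values below are CPM, a gene's counts scaled to a common library total, and tests are edgeR quasi-likelihood F tests with Benjamini-Hochberg adjustment over 12712 genes, called at 0.05. All 9 enzymes passed the filter on low counts. Library totals ran from 4342026 to 12286021 counts, both extremes being night-restricted libraries. Markers of hepatocytes (5 of 6 listed genes in the table) summed to between 20900 and 35900 CPM in every library. Summed markers of Kupffer cells and macrophages (9 genes) ran from 367 to 2420 CPM, of pancreatic acinar cells (4 genes) from 43.7 to 262 CPM and of adipocytes (4 genes) from 0 to 20.2 CPM. The adipocyte markers had medians of 6.93 CPM under ad libitum, 3.74 under incompletely adapted arrhythmic, 1.24 under arrhythmic and 0.804 under night-restricted feeding, and no marker gene of these 4 lists was at 0 in all libraries. Of the 4 acinar markers only 1 passed the filter on low counts, so their summed level is mainly that of 1 gene. Whether its reads came from acinar cells was not tested. This gene was called rhythmic under night-restricted feeding. Its rhythm was called different under arrhythmic feeding, with a smaller estimated range. Its mean was lower under both arrhythmic paradigms than under night-restricted feeding. The 1 adipocyte marker that passed was called rhythmic in 0 paradigms. Its mean was called higher under ad libitum than under arrhythmic or night-restricted feeding, and higher under incompletely adapted arrhythmic than under night-restricted feeding. Under night-restricted feeding 2 of 5 hepatocyte and 2 of 9 Kupffer cell and macrophage markers were called rhythmic. So were 4 of 7 pericentral and 2 of 6 periportal hepatocyte markers, beside 29.9% of all genes. A different rhythm under arrhythmic than night-restricted feeding was called for 0 of these markers, beside 3.89% of all genes. The part of these cell types in the results was not tested, and in whole liver fewer cells of a type and less RNA per cell cannot be told apart.

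Some libraries stood apart. For each library, the log2 deviations of all genes from their means over the 72 libraries were regressed on the GC content at the 3′ end of the transcript, and the slope, per SD of GC over genes, was farthest from 0 in night-restricted replicate 1 at ZT22 (0.375), ZT06 (0.327) and ZT02 (0.322) and in incompletely adapted replicate 1 at ZT10 (-0.274) and ZT14 (-0.246). The 3′ ends of the 9 genes ran from 39.3% GC in Idi1 and 39.4% in Hmgcs1, through 45.2% in Sqle, 47.5% in Lss, 52.3% in Fdps, 52.7% in Fdft1 and 54.8% in Pmvk, to 58.4% in Mvd and 59.7% in Mvk. At ZT22 the night-restricted replicate 1 was the highest of its group for Pmvk and Mvd and the lowest for Hmgcs1 and Lss.

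Under night-restricted feeding 6 of the 9 enzymes were rhythmic, with fitted peaks from ZT 19.7 in Lss to ZT 0.3 in Hmgcs1. Mvd, which removes a carboxyl group from diphosphomevalonate to give isopentenyl diphosphate, had the widest course of the 9, about 7.02-fold from trough to peak. Pmvk, Sqle, Lss, Fdps and Hmgcs1 were called as well, and Mvk, Idi1 and Fdft1 were not. Over all genes tested, 29.9% were called rhythmic in this paradigm. The median fitted range, the log2 difference between the peak and the trough of a 24 h cosine, was 1.59 over the 9 enzymes and 0.70 over all genes. Such a range is above 0 by construction.

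**Figure D2:**
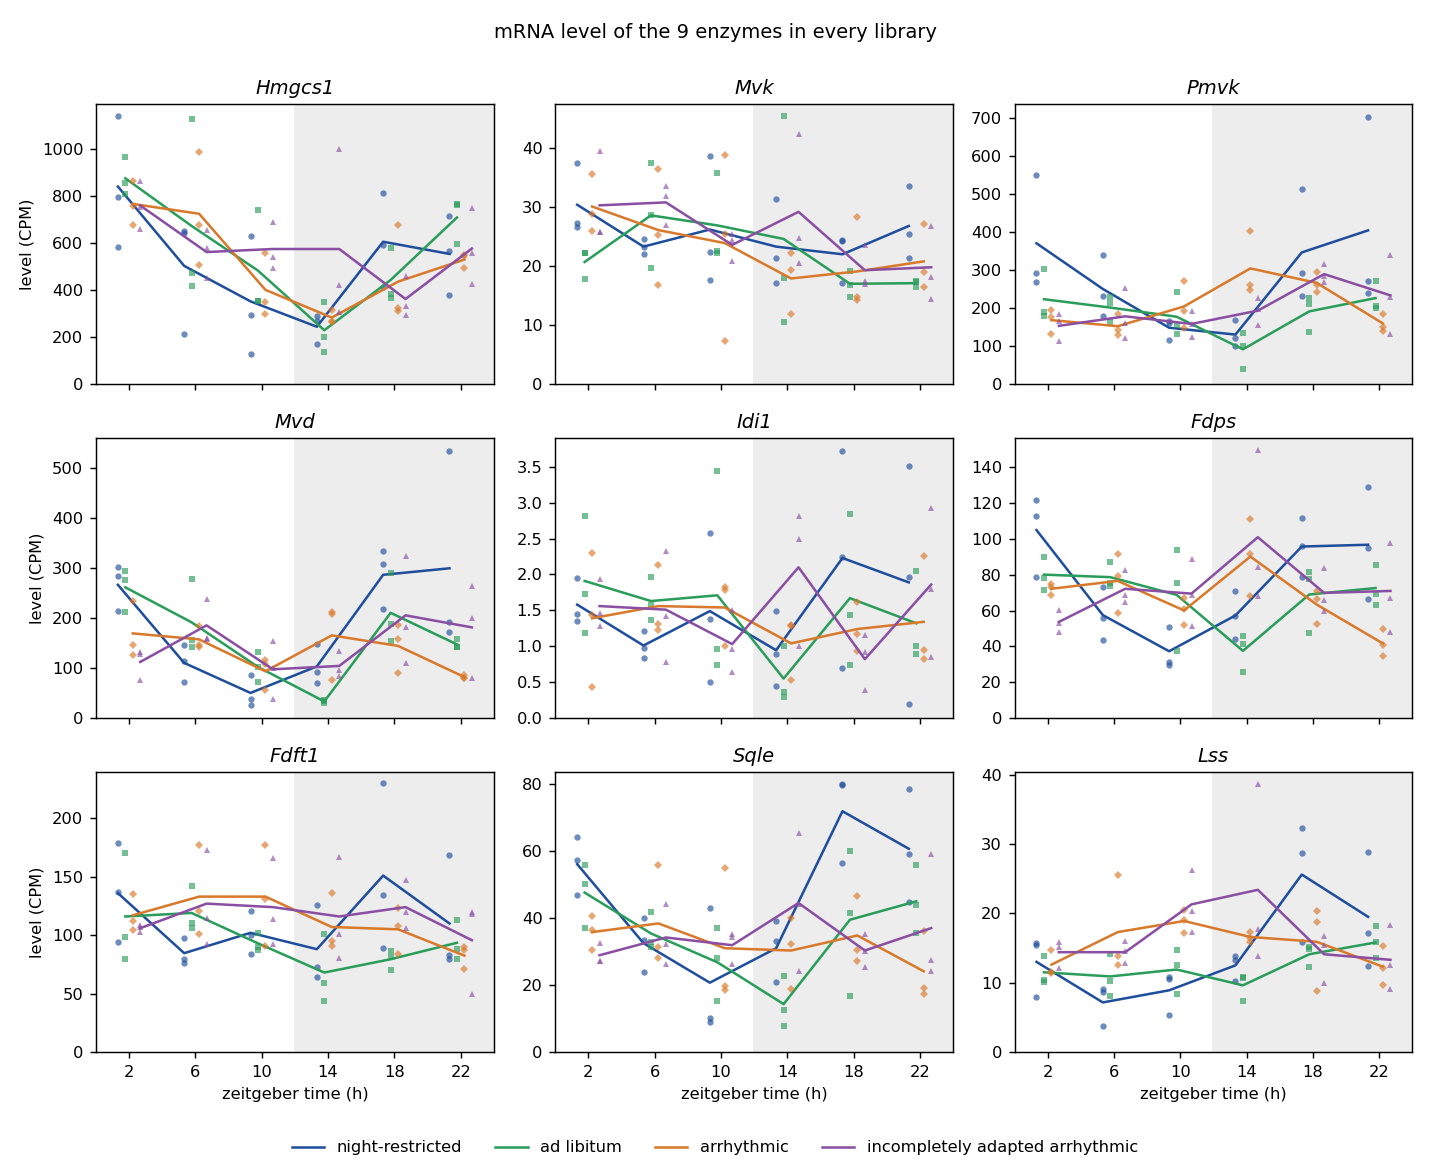
Level in CPM (y axis from 0, its own scale for each gene) against zeitgeber time for the 9 enzymes; points are libraries, lines join the means of 3 libraries, colours are the 4 feeding paradigms, points are shifted sideways to separate them, and grey marks the dark phase. Under night-restricted feeding (blue) Mvd, Fdps, Sqle and Lss are low from ZT06 to ZT14 and high from ZT18, and the ad libitum means (green) are lowest at ZT14 in all genes but Mvk.

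Hmgcs1 (ENSMUSG00000093930.1, GRCm38 chromosome 13, 119690379 to 119708260) encodes the cytosolic synthase that makes HMG-CoA at the head of the chain. Under night-restricted feeding its 3 libraries held 585, 797 and 1140 CPM at ZT02 and 269, 171 and 291 CPM at ZT14. The ZT02 and ZT14 libraries did not overlap. Times compared for overlap, here and below, were picked from these same levels, in most genes as the highest and lowest group means. Lack of overlap at picked times is a description and no test of a rhythm. Its share over all genes was not counted. Its fitted range was 1.51 ± 0.32 (SE) on the log2 scale with a peak at ZT 0.3 (adjusted p = 0.00151). Each night-restricted library held from 1012 to 6770 reads of it.

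Mvk (ENSMUSG00000041939.14, chromosome 5, 114444269 to 114460591), mevalonate kinase, showed no called course. Its night-restricted group means lay between 22 CPM at ZT18 and 30.4 CPM at ZT02, a ratio of 1.38, and its fitted range was 0.41 ± 0.31 (adjusted p = 0.514). The libraries at those times ran from 17.2 to 24.5 CPM and from 26.6 to 37.4 CPM, without overlap.

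Pmvk (ENSMUSG00000027952.16, chromosome 3, 89454541 to 89469013), phosphomevalonate kinase, held 702, 240 and 270 CPM at ZT22 and 169, 98.8 and 122 CPM at ZT14 under night-restricted feeding. The highest of these was replicate 1, which was also the highest library at ZT02 (549 against 291 and 269 CPM) and at ZT18 (514 against 292 and 232 CPM). The fitted range was 1.92 ± 0.35 with a peak at ZT 23.4 (adjusted p = 0.000275). Without the 6 libraries of night-restricted replicate 1 it was 1.25 (adjusted p = 0.0478), and adding the GC slope to the model gave 1.35 (adjusted p = 7.56e-07).

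Mvd (ENSMUSG00000006517.5, chromosome 8, 122433601 to 122443422) held, under night-restricted feeding, 38.5, 25.1 and 86.6 CPM at ZT10 and 334, 218 and 307 CPM at ZT18. All ZT18 libraries were above all ZT10 libraries. At ZT22 replicate 1 held 533 CPM against 172 and 191 CPM in the other two. The fitted range was 2.81 ± 0.48 with a peak at ZT 22.1 (adjusted p = 0.000127). Without night-restricted replicate 1 it was 2.03 and was not called (adjusted p = 0.0616), and without the 5 libraries of extreme GC slope it was 2.45 (adjusted p = 0.00398).

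Idi1 (ENSMUSG00000058258.14, chromosome 13, 8885501 to 8892451), the isomerase that turns isopentenyl into dimethylallyl diphosphate, was counted with few reads, from 1 to 28 in a night-restricted library. Its level was between 0.189 and 3.72 CPM, and a range of 0.96 ± 0.52 was not called (adjusted p = 0.278). In 378 aligned bases its 3′ end was identical to the processed pseudogene Gm13502, which held a mean of 0.85 CPM. With the counts of such pseudogenes added, a choice made after seeing the data, the night-restricted range of Idi1 was 1.43 and was called (adjusted p = 0.00573). The level of Idi1 is thus uncertain, since reads from copies may have been split or dropped in counting.

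Fdps (ENSMUSG00000059743.12, chromosome 3, 89093588 to 89101959), farnesyl diphosphate synthase at the branch point to other isoprenoids, held under night-restricted feeding 31.1, 29.8 and 51.0 CPM at ZT10 and 122, 78.7 and 113 CPM at ZT02. These libraries did not overlap. The fitted range was 1.59 ± 0.29 with a peak at ZT 22.4 (adjusted p = 0.000189). It was 1.15 and not called without night-restricted replicate 1 (adjusted p = 0.0558).

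The processed pseudogene Gm3571 is 99.2% identical to the 3′ end of Fdps over 476 bases and was counted at a mean of 139 CPM, above Fdps itself, whose paradigm means were 67.4 to 74.9 CPM. Its night-restricted libraries ran from 5.25 to 206 CPM. With pseudogene counts added to Fdps the night-restricted range was 0.75 and was not called (adjusted p = 0.192). The annotated gene Gm43738, on the same strand, shares 1124 exon bases with Fdps, 197 of them in its last 500, and was counted at 0 CPM. Reads in the shared bases may have been dropped in counting, which was not tested. Every result for Fdps is uncertain to the extent of the pseudogene and this overlap.

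Fdft1 (ENSMUSG00000021273.9, chromosome 14, 63145150 to 63179578), squalene synthase, the first enzyme committed to sterols, had a night-restricted range of 0.74 ± 0.31 at ZT 21.7 that was not called (adjusted p = 0.142). Its libraries held 230, 134 and 88.6 CPM at ZT18 and 97.8, 76.0 and 80.0 CPM at ZT06. Replicate 3 at ZT18 lay below replicate 1 at ZT06, so the groups overlap. The last 500 bases of Fdft1 lie opposite exons of Ctsb, the gene of the protease cathepsin B, at a mean of 217 CPM. The strand setting of the counting is not given in the sources used here, so reads of the pair may not be told apart.

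Sqle (ENSMUSG00000022351.14, chromosome 15, 59315077 to 59331192), squalene epoxidase, held under night-restricted feeding 10.1, 8.96 and 43.1 CPM at ZT10 and 56.3, 79.9 and 79.6 CPM at ZT18. The groups did not overlap, though replicate 3 at ZT10 was far above the other two. The fitted range was 1.81 ± 0.36 with a peak at ZT 21.8 (adjusted p = 0.000708). Without night-restricted replicate 1 it was 1.61 (adjusted p = 0.024).

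Lss (ENSMUSG00000033105.12, chromosome 10, 76531588 to 76557138) encodes lanosterol synthase, which closes the sterol rings. It held 3.78, 8.60 and 9.09 CPM at ZT06, 10.6, 5.30 and 10.8 CPM at ZT10, 15.9, 32.3 and 28.7 CPM at ZT18, and 12.4, 17.1 and 28.9 CPM at ZT22 under night-restricted feeding. Every library of ZT18 and ZT22 was above every library of ZT06 and ZT10. The peak at ZT 19.7 was the earliest of the 6 called enzymes, with a range of 1.75 ± 0.25 (adjusted p = 4.56e-07). The call did not rest on replicate 1, without which the range was 1.91 (adjusted p = 6.93e-06).

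Under ad libitum feeding Hmgcs1 and Sqle were rhythmic, 2 of the 9, where 7.48% of all genes were called. At ZT14 all 9 enzymes lay below their own mean log2 level over the 24 groups, and for 8 of them ZT14 was the lowest ad libitum group mean; Mvk was lowest at ZT18 (17 CPM). Hmgcs1 held 137, 200 and 351 CPM at ZT14 and 965, 854 and 808 CPM at ZT02, without overlap. Its range was 1.61 ± 0.32 with a peak at ZT 2.1 (adjusted p = 0.00211); the night-restricted peak was at ZT 0.3. Sqle held 7.72, 12.5 and 22.7 CPM at ZT14 and 55.7, 36.9 and 50.1 CPM at ZT02, also without overlap. Its range of 1.32 ± 0.35 at ZT 0.5 passed narrowly (adjusted p = 0.0447).

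The Sqle call in ad libitum feeding was lost when any of 11 single libraries was left out, with adjusted p from 0.0523 to 0.141. These were replicate 1 at each of the 6 times, replicate 2 at ZT06, ZT14 and ZT22, and replicate 3 at ZT02 and ZT14. The count of rhythmic enzymes was 1 to 3 when a single ad libitum library was left out, since Mvd (1.86 ± 0.48, adjusted p = 0.0533) then passed without any of ZT22 of replicates 1, 2 and 3, ZT10 or ZT18 of replicate 2, or ZT06 or ZT18 of replicate 3 (adjusted p from 0.013 to 0.0448). Hmgcs1 was not called without the 6 libraries of ad libitum replicate 1 (adjusted p = 0.123) or replicate 2 (0.0685), and in both cases 0 enzymes were called. The number was 1 without any of ZT02, ZT06, ZT10, ZT14 or ZT18 of replicate 1, ZT06 or ZT14 of replicate 2, or ZT02 or ZT14 of replicate 3.

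For Mvd under ad libitum feeding the cosine did not pass by edgeR (adjusted p = 0.0533), and it passed by DESeq2 (0.0259), by edgeR once the GC slope was added to the model (0.00363) and without the 5 libraries of extreme GC slope (0.0393). Its libraries held 30.0, 33.9 and 35.5 CPM at ZT14, the lowest group of Mvd in the study, and 276, 211 and 294 CPM at ZT02, with a ratio of group means of 7.87. The test of its 6 group means against the cosine did not pass adjustment over all genes by edgeR (adjusted p = 0.808). Over the 4 paradigms this departure was called for 0 of 9 enzymes by edgeR, where 0%, 0.0236%, 0% and 0.00787% of all genes were called (night-restricted, ad libitum, arrhythmic, incompletely adapted arrhythmic), and for 0, 1, 2 and 1 at an unadjusted p under 0.05. With time as a factor of 6 levels Mvd was called rhythmic under ad libitum feeding (adjusted p = 0.00124).

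Pmvk, Fdps and Lss were not called under ad libitum feeding. Pmvk held 39.3, 99.7 and 135 CPM at ZT14, all below the lowest libraries of ZT22 (200, 272 and 206 CPM), and its range of 0.93 ± 0.35 was not called (adjusted p = 0.227). Fdps held 25.9, 41.1 and 45.6 CPM at ZT14 and 71.7, 90.2 and 78.4 CPM at ZT02 (range 0.75 ± 0.29, adjusted p = 0.22). Lss, the strongest call under night-restricted feeding, had group means from 9.62 CPM at ZT14 to 15.8 CPM at ZT22 (range 0.45 ± 0.24, adjusted p = 0.381).

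Under the arrhythmic paradigms edgeR called 0 of the 9 enzymes rhythmic, where 3.37% (arrhythmic) and 3.63% (incompletely adapted) of all genes were called. At an unadjusted p under 0.05 there were 3 and 2 enzymes. These counts of 0 rest on the setting. DESeq2 called 1 in each, Pmvk under arrhythmic feeding (adjusted p = 0.0481) and Lss under incompletely adapted arrhythmic feeding (adjusted p = 0.0432). The largest arrhythmic range was that of Pmvk, 1.21 ± 0.35 with a peak at ZT 14.7 (adjusted p = 0.0808), followed by Hmgcs1, 1.13 ± 0.32 at ZT 2.6 (adjusted p = 0.0821). With the GC slope as a covariate Pmvk (adjusted p = 0.00567) and Lss (0.0198) were called under arrhythmic feeding, and Pmvk (0.025) under incompletely adapted feeding. Hmgcs1 and Pmvk were called under arrhythmic feeding without the 5 libraries of extreme GC slope (0.0321 and 0.0382), in a fit of that paradigm's own libraries (0.0165 and 0.00856), and with a replicate block within each paradigm (0.0215 and 0.00989). Leaving out arrhythmic ZT18 replicate 2 made Hmgcs1 rhythmic (adjusted p = 0.0201), which moved the count to 1. Median ranges of the 9 were 0.67 and 0.50, against 0.43 and 0.42 over all genes.

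For Hmgcs1 under arrhythmic feeding the libraries held 864, 758 and 679 CPM at ZT02 and 317, 264 and 267 CPM at ZT14, without overlap. Under incompletely adapted arrhythmic feeding its means were 760 CPM at ZT02 and 362 CPM at ZT18, with a range of 0.50 ± 0.32 (adjusted p = 0.73). At ZT14 replicate 1 of that paradigm, an extreme library by GC slope, held 999 CPM against 420 and 305 CPM.

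For Lss the fitted peaks of these paradigms lay near the start of the dark, though neither course was called. Arrhythmic libraries held 20.5, 19.1 and 17.1 CPM at ZT10 and 15.3, 12.1 and 9.68 CPM at ZT22, and the range was 0.79 ± 0.24 with a peak at ZT 11.8 (adjusted p = 0.133). Incompletely adapted libraries held 26.3, 17.3 and 20.4 CPM at ZT10 and 12.1, 15.2 and 15.8 CPM at ZT02, with a range of 0.81 ± 0.24 at ZT 12.4 (adjusted p = 0.0842). It was called there without ZT22 replicate 1 (adjusted p = 0.0368) or without ZT14 replicate 3 (adjusted p = 0.0433), which moved the count of that paradigm to 1.

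**Figure D3:**
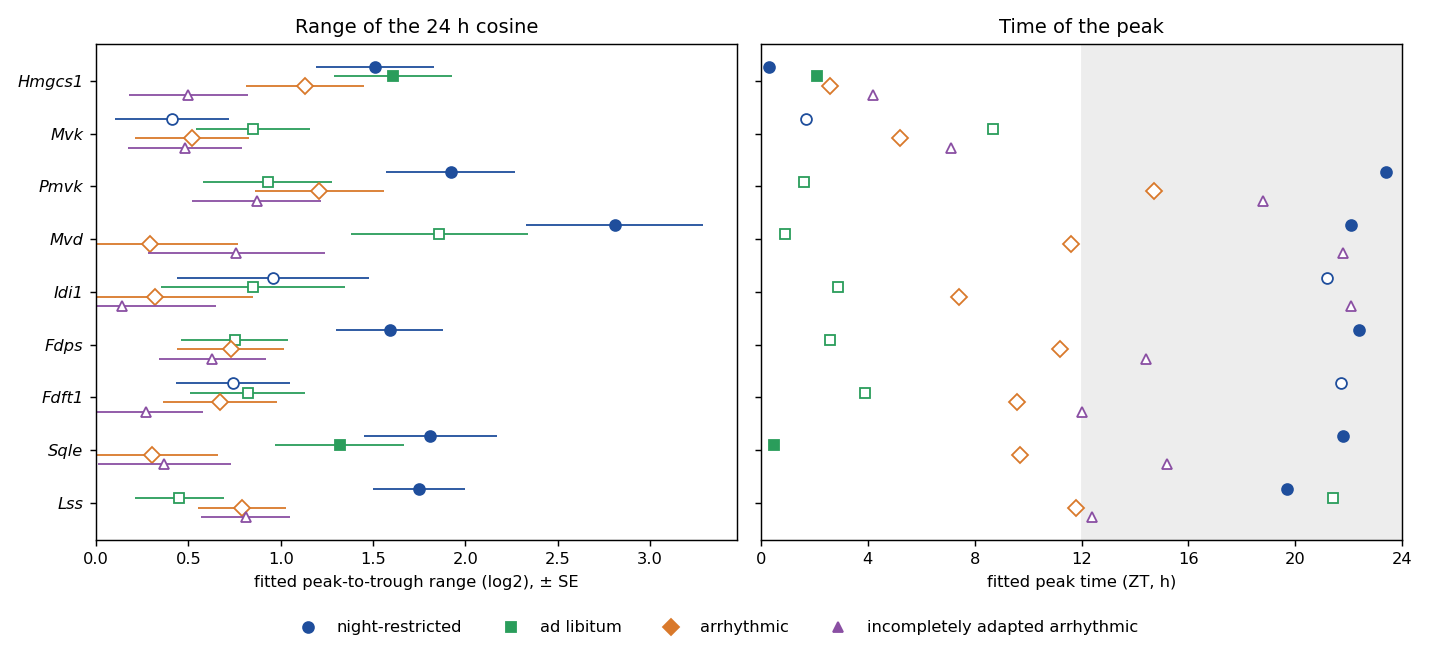
Left, fitted log2 range between peak and trough with its SE (bars end at 0 where the SE reaches below it) for each enzyme and paradigm; right, fitted peak time, with the dark phase in grey. Filled symbols were called rhythmic (6 night-restricted, 2 ad libitum), open symbols were not, and the peak of an open symbol is not that of a called rhythm. The called night-restricted peaks lie between ZT 19.7 and ZT 0.3.

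Arrhythmic feeding was then compared with night-restricted feeding. The part of food timing alone was not tested. The test of a rhythm difference takes the cosine and sine terms together, so its p covers range and peak time jointly. A range difference printed beside such a p, here and below, is an estimate that was not tested alone. The rhythm of 5 of the 9 enzymes differed, Pmvk, Mvd, Fdps, Sqle and Lss, and all 5 had a smaller estimated range under arrhythmic feeding. Over all genes 3.89% were called different, 3.63% with a smaller range under arrhythmic feeding. The 1 gene of the acinar list that passed the filter was called different too, with a smaller estimated range, and its part was not tested. Without the 6 libraries of arrhythmic replicate 1, or of arrhythmic replicate 2, 3 were called, since Mvd and Sqle were lost, and without those of night-restricted replicate 1, 2 were called, Pmvk and Lss. Of the 9 range differences 8 were below 0, with a median of -0.71, against -0.25 over all genes. Hmgcs1 (adjusted p = 0.348), Mvk (0.75), Idi1 (0.412) and Fdft1 (0.0926) were not called. Fdft1 passed without night-restricted ZT22 replicate 2 (adjusted p = 0.0455) or replicate 3 (0.0428).

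Pmvk differed with a range of 1.21 ± 0.35 against 1.92 ± 0.35, and a difference in peak time of -8.6 h, the negative sign meaning earlier under arrhythmic feeding (adjusted p = 0.00238). At ZT02 arrhythmic libraries held 132, 194 and 177 CPM, all below the night-restricted 549, 291 and 269 CPM. At ZT14 they held 261, 402 and 248 CPM, all above 169, 98.8 and 122 CPM. The order of the groups was opposite at the 2 times. Without night-restricted replicate 1 the difference in range was -0.05 and the rhythm difference was still called (adjusted p = 0.0157).

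Mvd had a range of 0.29 ± 0.48 under arrhythmic feeding against 2.81 ± 0.48 (adjusted p = 0.0243). At ZT22 its arrhythmic libraries held 85.8, 79.4 and 80.2 CPM, all below the night-restricted 533, 172 and 191 CPM. At ZT10 they held 116, 108 and 56.6 CPM against 38.5, 25.1 and 86.6 CPM, with overlap. Without night-restricted ZT22 replicate 1 the range difference was -2.25 and the rhythm difference was not called (adjusted p = 0.057). Without all 6 libraries of night-restricted replicate 1 the range difference was -1.74 (adjusted p = 0.228). The range difference was -2.16 without the 5 libraries of extreme GC slope (adjusted p = 0.116). With the GC slope as a covariate it was -2.15 (adjusted p = 0.00994).

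The fitted range of Fdps was 0.73 ± 0.29 with a peak at ZT 11.2, against 1.59 ± 0.29 with a peak at ZT 22.4 under night-restricted feeding (adjusted p = 0.00357). At ZT22 arrhythmic libraries held 40.7, 49.6 and 34.5 CPM, below the night-restricted 129, 66.7 and 95.2 CPM. At ZT14 they held 91.4, 111 and 67.9 CPM against 57.2, 44 and 70.8 CPM, with overlap. With its pseudogenes added the range difference was 0.02 and the rhythm difference was not called (adjusted p = 0.113). Without night-restricted replicate 1 the range difference was -0.43 (adjusted p = 0.0575).

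Sqle had a range of 0.30 ± 0.36 under arrhythmic feeding against 1.81 ± 0.36 (adjusted p = 0.0322). The arrhythmic group means stayed between 24.1 CPM at ZT22 and 38.4 CPM at ZT06. At ZT18 the arrhythmic libraries held 30.4, 27.3 and 46.7 CPM, all below the night-restricted 56.3, 79.9 and 79.6 CPM. The call was lost without any of 8 single libraries, with adjusted p from 0.0516 to 0.0715. These were arrhythmic replicate 1 at ZT06 and ZT10, arrhythmic replicates 2 and 3 at ZT22, night-restricted replicate 1 at ZT02 and ZT10, and night-restricted replicate 2 at ZT10 and ZT14. Without night-restricted replicate 1 the adjusted p was 0.137, and without the 5 libraries of extreme GC slope the range difference was -1.56 (adjusted p = 0.0578).

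Lss had the smallest p of the 9, with a range of 0.79 against 1.75 and a peak at ZT 11.8 against ZT 19.7 (adjusted p = 0.000195). At ZT06 the arrhythmic libraries held 25.5, 13.8 and 12.5 CPM, all above the night-restricted 3.78, 8.60 and 9.09 CPM. At ZT10 they were again all above, and at ZT22 the groups overlapped. The rhythm difference was called in all 53 alternatives tried for it, with adjusted p from 2.45e-06 to 0.00899.

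At single times the same comparison called 0 of 54 tests (9 enzymes at 6 times) by edgeR, with 0%, 0.378%, 0.11%, 0.0865%, 0% and 0.00787% of all genes called from ZT02 to ZT22. At an unadjusted p under 0.05 there were 2, 2, 2, 2, 4 and 5 enzymes from ZT02 to ZT22. DESeq2 called 5 of the 54. The direction was shared: all 9 enzymes had lower estimates under arrhythmic feeding at ZT02, ZT18 and ZT22, and 7, 8 and 8 had higher estimates at ZT06, ZT10 and ZT14. Median log2 differences were -0.45, 0.32, 0.54, 0.41, -0.65 and -0.80 from ZT02 to ZT22, and those of all genes stayed between -0.04 and 0.01. Mvd at ZT22 was 4.46-fold lower (log2 difference -2.16 ± 0.49, adjusted p = 0.0825) and Fdps 2.72-fold lower (-1.44 ± 0.32, adjusted p = 0.0693). Night-restricted replicate 1, the library with the slope farthest from 0, was the highest for both, and without it Mvd was 2.26-fold lower (-1.17, adjusted p = 1) and Fdps 1.98-fold lower (-0.98, adjusted p = 0.996). Lss at ZT06 was 2.15-fold higher (1.10 ± 0.31, adjusted p = 0.0788), 1.83-fold without night-restricted ZT06 replicate 1 (adjusted p = 0.623), and was called without night-restricted ZT06 replicate 2 (adjusted p = 0.0424). Without night-restricted ZT22 replicate 2 Fdps was called at ZT22 (adjusted p = 0.0374), so that each of these libraries moved the count to 1.

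**Figure D4:**
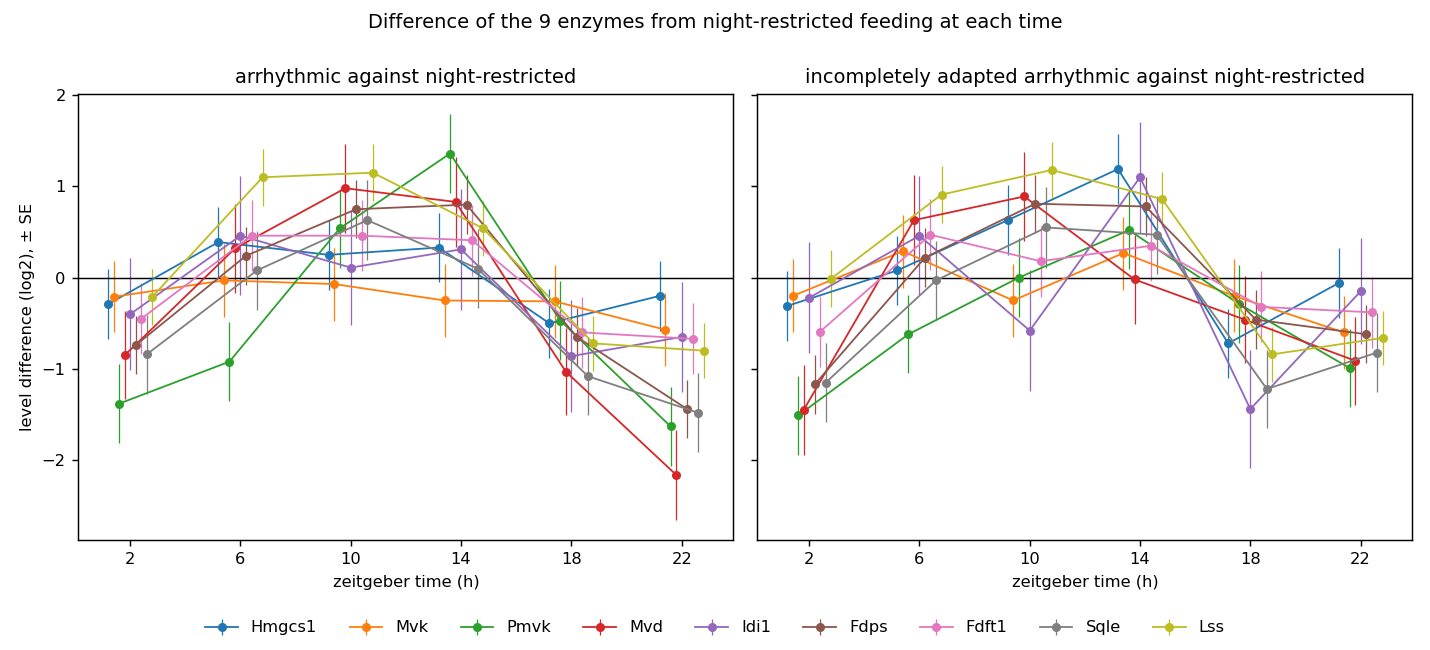
Log2 difference in level, with its SE, of each enzyme from night-restricted feeding at each time, for arrhythmic (left) and incompletely adapted arrhythmic feeding (right); points are shifted sideways to separate the genes, and 0 is the horizontal line. All 9 enzymes are below 0 at ZT02, ZT18 and ZT22 in both panels, and most are above 0 from ZT06 to ZT14. The panels share the night-restricted libraries.

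Incompletely adapted arrhythmic feeding was compared with the same night-restricted libraries, so these values are not independent of those above. Lss and Fdps differed in rhythm, 2 of the 9, where 0.614% of all genes were called, 0.566% with a smaller range under incompletely adapted feeding. Lss had ranges of 0.81 against 1.75, with peaks at ZT 12.4 and ZT 19.7 (adjusted p = 0.00082). Fdps had ranges of 0.63 ± 0.29 and 1.59 ± 0.29, with peaks at ZT 14.4 and ZT 22.4 (adjusted p = 0.0205). Pmvk passed without night-restricted ZT18 replicate 1 (adjusted p = 0.0475) and Sqle without night-restricted ZT10 replicate 3 (0.0477). At ZT02 the Fdps libraries held 47.8, 53.1 and 60.1 CPM, all below the night-restricted 122, 78.7 and 113 CPM. Fdps was lost in 8 of 53 alternatives with its direction kept, among them leaving out all 6 libraries of any replicate number of the incompletely adapted paradigm (adjusted p = 0.0634, 0.12 and 0.0566). With pseudogenes added the Fdps range difference was 0.11 and its rhythm difference was not called (adjusted p = 0.272). Without night-restricted replicate 1 the range difference of Fdps was -0.50 (adjusted p = 0.118) and that of Lss -1.07 (adjusted p = 0.000398). Without the 5 libraries of extreme GC slope the range difference of Fdps was -0.90 (adjusted p = 0.0996).

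At single times 0 of 54 tests were called by edgeR in this comparison, against 0.417%, 0.11%, 0.11%, 0.0236%, 0% and 0% of all genes from ZT02 to ZT22, and 3 by DESeq2. At an unadjusted p under 0.05 there were 4, 1, 2, 3, 3 and 2 enzymes from ZT02 to ZT22. All 9 estimates were lower at ZT02, ZT18 and ZT22, as above. Pmvk at ZT02 was 2.85-fold lower (-1.51 ± 0.43, adjusted p = 0.071), with libraries of 112, 165 and 183 CPM. Fdps at ZT02 was 2.25-fold lower (-1.17 ± 0.32, adjusted p = 0.0672), and passed without night-restricted ZT02 replicate 2 (adjusted p = 0.0461), which moved the count to 1. Without the 5 libraries of extreme GC slope the log2 differences were -0.95 for Pmvk (adjusted p = 0.503) and -0.91 for Fdps (0.341).

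The arrhythmic paradigms did not differ from each other in the rhythm of any of the 9 enzymes by edgeR, with 0 called, 0% of all genes called and 0 at an unadjusted p under 0.05. DESeq2 also called 0. Range differences ran from -0.63 in Hmgcs1 to 0.47 in Mvd, with 6 below 0 and 3 above. A p that misses the threshold does not show that these courses were alike: the SE of a single range was from 0.24 in Lss to 0.53 in Idi1.

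Against ad libitum feeding 0 of 9 rhythm differences were called for arrhythmic (0.0236% of all genes) and 0 of 9 for night-restricted feeding (0% of all genes) by edgeR, and also by DESeq2. At an unadjusted p under 0.05 there were 5 in each. For arrhythmic feeding the smallest p was that of Pmvk (edgeR adjusted p = 0.16), with ranges of 1.21 and 0.93 and peaks at ZT 14.7 and ZT 1.6. With the GC slope as a covariate it was called, with a range difference of -0.07 (adjusted p = 0.00526). For night-restricted feeding the smallest was that of Lss, with ranges of 1.75 and 0.45 (edgeR adjusted p = 0.228), called with the covariate (adjusted p = 0.047).

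The ZT14 trough of ad libitum feeding gave the only call at a single time by edgeR. Mvd was 5.69-fold higher under arrhythmic feeding, with libraries of 212, 208 and 75.7 CPM against 30.0, 33.9 and 35.5 CPM (log2 difference 2.51 ± 0.49, adjusted p = 0.0201). All arrhythmic libraries were above all ad libitum libraries, and 0.0865% of all genes were called in this comparison. At the other times 0 of the 9 were called, and of all genes 0.00787% at ZT02 and 0% at ZT06, ZT10, ZT18 and ZT22. The call was lost without any 1 of 5 of these 6 libraries, with adjusted p from 0.0862 to 0.208. Without the sixth, arrhythmic replicate 3, Mvd was called and Fdps passed too (adjusted p = 0.037), giving 2. Of the 9 enzymes 8 had higher estimates under arrhythmic feeding at ZT14, with a median log2 difference of 1.12 against -0.03 over all genes. Fdps held 91.4, 111 and 67.9 CPM against 25.9, 41.1 and 45.6 CPM (1.45 ± 0.32, adjusted p = 0.0517), and Pmvk 261, 402 and 248 CPM against 39.3, 99.7 and 135 CPM (1.91 ± 0.43, adjusted p = 0.0654). Both were called by DESeq2 (adjusted p = 0.00557 for each), with the GC slope in the model (0.0261 for Fdps and 7.05e-05 for Pmvk) and without the 5 libraries of extreme GC slope (0.0163 for each).

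Levels averaged over the day were compared last. Of 45 tests (9 enzymes in 5 comparisons) 1 was called: Pmvk was lower under incompletely adapted arrhythmic than under night-restricted feeding (log2 difference -0.48 ± 0.18, adjusted p = 0.0495), where 18% of all genes were called, 11.2% in the lower direction, and 1 of 9 is near that share. Its 18 libraries averaged 201 ± 68.6 CPM (SD) against 275 ± 163 CPM. Adding the GC slope to the model brought the log2 difference to -0.02 (adjusted p = 0.97), and it was -0.02 without night-restricted replicate 1 (adjusted p = 0.974). It was lost without any of 22 single libraries, with adjusted p from 0.0501 to 0.133. Among the incompletely adapted ones these were all 6 of replicate 1, ZT02, ZT06, ZT10, ZT14 and ZT22 of replicate 2, and ZT02 and ZT14 of replicate 3. Among the night-restricted ones they were all 6 of replicate 1, ZT10 of replicate 2, and ZT06 and ZT10 of replicate 3.

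The other mean comparisons called 0 of 9 by edgeR: arrhythmic against night-restricted (6.92% of all genes), ad libitum against arrhythmic (2.1%) and against night-restricted (1.62%), and the arrhythmic paradigms against each other (0%). At an unadjusted p under 0.05 they held 2, 1, 3 and 0. Pmvk was estimated higher under night-restricted than ad libitum feeding (0.57 ± 0.18, adjusted p = 0.0755), DESeq2 called it (adjusted p = 0.0361), and edgeR called it so without any of ad libitum ZT10 replicate 2, night-restricted ZT22 replicates 2 and 3, or night-restricted ZT02 replicate 3 (adjusted p from 0.0261 to 0.0477). Lss was the 1 enzyme of 9 with a higher mean under arrhythmic than night-restricted feeding (0.17 ± 0.12, adjusted p = 0.37), and the Sqle estimate was -0.44 ± 0.18 (adjusted p = 0.117).

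The 9 courses were alike to different degrees. Standardized over the 24 groups, they averaged 1.34 at ZT02, 1.32 at ZT18 and 0.98 at ZT22 under night-restricted feeding, and -2.14 at ZT14 under ad libitum feeding, the lowest group. Under arrhythmic feeding the mean stayed between -0.89 at ZT22 and 0.23 at ZT06, and under incompletely adapted arrhythmic feeding between -0.21 and 0.55. Pearson's r of an enzyme with the mean of the other 8 over the 24 group means was 0.897 for Sqle, 0.878 for Fdps, 0.829 for Mvd, 0.744 for Fdft1, 0.697 for Pmvk, 0.656 for Idi1, 0.634 for Hmgcs1, 0.477 for Lss and 0.248 for Mvk. These are descriptions: the 24 points share libraries, and their depth and GC slope, among genes. Mvd and Sqle were the closest pair (r = 0.90), and Mvk and Lss the farthest (r = -0.09).

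**Figure D5:**
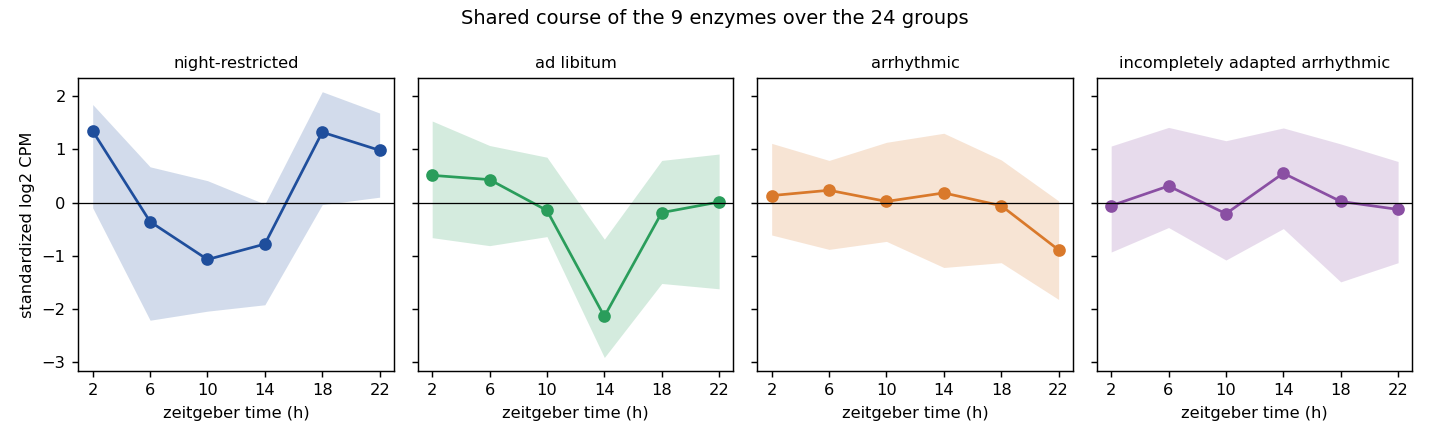
Mean of the 9 standardized log2 courses (line, each gene scaled over its 24 group means) with the lowest and highest enzyme (band) against zeitgeber time in each paradigm. The night-restricted mean rises to 1.32 at ZT18 and 1.34 at ZT02, the ad libitum mean drops to -2.14 at ZT14, and the arrhythmic means stay between -0.89 and 0.55.

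Among genes of at least 5 CPM, those most like the mean course of the 9 were Dhcr7 (r = 0.895), the reductase at the end of cholesterol synthesis, Sgsm1 (0.871), Dock6 (0.808), Grb7 (0.784) and Insig1 (0.776), which holds SREBP proteins in the endoplasmic reticulum. Idi2, a paralog of Idi1, was at 0 in all 72 libraries. The thiolases Acat1 and Acat2 had paradigm means of 182 to 227 and 217 to 263 CPM.

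The other genes of the pathway were counted in lists. Among 10 enzymes that act after lanosterol, 3 were rhythmic with night-restricted food, 2 with food ad libitum, 1 in the arrhythmic and 0 in the incompletely adapted group, beside 29.9%, 7.48%, 3.37% and 3.63% of all genes. Their median night-restricted range was 0.50, against 1.59 for the early enzymes. The rhythm differed between arrhythmic and night-restricted feeding (3.89% of all genes) for Dhcr7, with ranges of 1.33 under night-restricted and 0.58 under arrhythmic feeding (adjusted p = 0.0011). It also differed for Hsd17b7 (0.45 and 0.91, adjusted p = 0.00431) and Msmo1 (0.50 and 0.71, adjusted p = 0.0241), both with the larger range under arrhythmic feeding. All 5 early enzymes called in this comparison had a smaller range. The contrast between early and late enzymes was not tested.

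Among the genes of sterol sensing and uptake 13 could be tested, of which 10 had a night-restricted rhythm; 7 had a different rhythm when feeding was arrhythmic, 6 of them of smaller range. These 2 counts, and those of the lists that follow, stand beside 29.9% and 3.89% of all genes. Insig1 was among them (adjusted p = 2.93e-06). Of 11 genes of other isoprenoid branches 5 were rhythmic under night-restricted feeding and 0 differed. Of 15 fatty acid synthesis genes 10 were rhythmic and 9 differed, 8 with a smaller range. Of 11 genes of cholesterol disposal 8 were rhythmic and 1 differed, Abcg8, a sterol exporter (ranges of 1.99 under night-restricted and 0.97 under arrhythmic feeding, adjusted p = 0.0417).

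The spread between libraries of a group was described by the SD of log2 CPM at a time. The median SD was 0.44, 0.35, 0.36 and 0.37 over the 9 enzymes, for the 4 paradigms in the order of the opening, and 0.44, 0.32, 0.33 and 0.35 over all genes. Under night-restricted feeding it was 0.26 in Sqle and 0.67 in Pmvk, and Idi1, with the fewest reads, had 0.78.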

How the data were processed

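Livers were measured by 3′ mRNA sequencing (Lexogen QuantSeq, 2 µg of total RNA, per the labels). The authors deposited raw counts per gene, and alignment used STAR 2.4.2a with build mm10 / GRCm38.p5, per the submitters' processing notes. No source used here gives the counting tool, its strand setting or its annotation. Symbols were joined by Ensembl gene ID from GENCODE M21 and matched 51719 of 51912 IDs. Library totals ran from 4342026 to 12286021 counts, and 0 library columns were identical.

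Counts were scaled by TMM and tested with edgeR 4.0.16 (R 4.3.3), a quasi-likelihood fit over the 72 libraries in which each paradigm had its own mean and 24 h cosine and sine terms, and a fit of 24 group means for single times. Genes passed filterByExpr (12712), and calls used a false discovery rate of 0.05. DESeq2 1.42.0 was an alternative, beside no filter, the GC slope (12696 genes, last 500 bases), blocks of replicate number, and leaving out libraries. The code was tested on simulated data. The members and gene lists were chosen with earlier results of these data known. All 9 members were named, with at most 4 genes of each other list, those of smallest p for arrhythmic against night-restricted feeding, and the 5 genes most like the members' mean course. Some genes of the lists are not reported here.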

Additional observations from a re-analysis of the deposited data

Results flagged for a closer look

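These results were singled out because the daily course differed between paradigms by a test of the difference itself, edgeR's quasi-likelihood test with Benjamini-Hochberg adjustment. Between arrhythmic and night-restricted feeding the adjusted p was 0.00238 for Pmvk, 0.0243 for Mvd, 0.00357 for Fdps, 0.0322 for Sqle and 0.000195 for Lss. Between incompletely adapted arrhythmic and night-restricted feeding it was 0.0205 for Fdps and 0.00082 for Lss. Both comparisons use the same night-restricted libraries. Pmvk and Lss were called in all 53 alternatives of the first comparison, and Lss in all 53 of the second.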

How the results depend on the processing

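The counts of the 9 enzymes called that moved by more than 1.5 times, or from or to 0, were as follows. Smaller moves included 3 rhythmic under ad libitum feeding with DESeq2 and without the 5 libraries of extreme GC slope, 3 rhythm differences of incompletely adapted from night-restricted feeding with DESeq2, and 6 of arrhythmic from night-restricted feeding with the GC slope, alone or with a replicate block, and with a block within paradigms. Without a filter on low counts there were 1 rhythmic under ad libitum feeding, 3 rhythm differences of arrhythmic from night-restricted feeding, 0 mean differences of incompletely adapted arrhythmic from night-restricted feeding and 0 calls at single times of arrhythmic from ad libitum feeding. With DESeq2 there were 1 rhythmic under each arrhythmic paradigm, 1 mean difference of night-restricted from ad libitum feeding, and 5, 3 and 3 calls at single times of arrhythmic from night-restricted, arrhythmic from ad libitum and incompletely adapted from night-restricted feeding. With the GC slope as a covariate there were 4, 2 and 1 rhythmic under ad libitum, arrhythmic and incompletely adapted feeding, 1, 1 and 4 rhythm differences of arrhythmic from ad libitum, night-restricted from ad libitum and incompletely adapted from night-restricted feeding, 0 for the mean of the last pair, and 2, 3 and 1 at single times in the order given for DESeq2. Without the 5 libraries of extreme GC slope there were 2 rhythmic under arrhythmic feeding, 3 and 1 rhythm differences of arrhythmic and of incompletely adapted from night-restricted feeding, 0 mean differences of the latter, and 3 calls at single times of arrhythmic from ad libitum feeding.

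With a replicate block the mean difference of Pmvk was not called (count 0, log2 difference -0.47, adjusted p = 0.0596). A replicate block with the GC slope gave 4, 2 and 1 rhythmic, 1, 1 and 4 rhythm differences, 0 means, and 2, 3 and 0 at single times, in the order given for the GC slope, which alone gave 1 for the last. Within a paradigm, deviations of same-numbered libraries from their group means correlated with a median r of 0.301, and those of other numbers with -0.162. The deviations of the 3 libraries of a group sum to 0 in each gene. The second r is thus largely fixed by the first and is no separate baseline. In 26 of 60 pairs of groups all 3 same-numbered r were over 0.1. Across paradigms at one time the medians were -0.047 and 0.017. The numbers were thus not taken as pairs across paradigms, but within a paradigm they may mark something shared. The main tests treat the libraries as independent, and what the numbers share was not tested. A replicate block within each paradigm, chosen after seeing the data, gave 4 and 2 rhythmic under ad libitum and arrhythmic feeding, 1 and 4 rhythm differences of arrhythmic from ad libitum and incompletely adapted from night-restricted feeding, 1 mean difference of night-restricted from ad libitum feeding, and 5, 3 and 5 calls at single times. With own libraries only there were 1 and 2 rhythmic under ad libitum and arrhythmic feeding, 1 rhythm difference and 0 mean differences of incompletely adapted from night-restricted feeding, and 3 calls at single times of arrhythmic from ad libitum feeding. Time as a factor of 6 levels, and sums with pseudogenes (chosen after seeing the data), each gave 1 rhythm difference of incompletely adapted from night-restricted feeding.

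The sign of the range difference, which was not tested alone, reversed in 3 enzymes. For Pmvk, arrhythmic from ad libitum, it did so with the GC slope (-0.067) and with the replicate block and GC slope (-0.069). For Fdps it did so with pseudogenes (0.024 for arrhythmic and 0.11 for incompletely adapted from night-restricted feeding). For Fdft1, arrhythmic from night-restricted, it did so with the block within paradigms (0.061). The cause was not tested.

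Leaving out 1 library, or the 6 of a replicate number, gave 4 to 6, 0 to 3, 0 to 1 and 0 to 1 rhythmic (night-restricted, ad libitum, arrhythmic, incompletely adapted). Rhythm differences were 2 to 6 for arrhythmic and 1 to 3 for incompletely adapted from night-restricted feeding, and 0 to 0 for the other 3 pairs. Mean differences were 0 to 2 for arrhythmic from night-restricted, night-restricted from ad libitum and incompletely adapted from night-restricted feeding. Calls at single times were 0 to 4 for arrhythmic from night-restricted, 0 to 2 for arrhythmic from ad libitum and 0 to 2 for incompletely adapted from night-restricted feeding. Depth limits Idi1 most, with 1 to 28 reads per library.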
